A study of Drosophila melanogaster with 6 samples.

Results

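The glutathione S-transferase (Gst) genes of Drosophila melanogaster were examined in adult heads of Prp31 mutants and of control flies. The members were all genes of the deposited table whose symbol is Gst followed by a class letter and a number. This rule found 35 of 11836 genes, of which 11 belong to class Delta (GstD), 14 to Epsilon (GstE), 3 to Omega (GstO), 1 to Sigma (GstS), 4 to Theta (GstT) and 2 to Zeta (GstZ). The mutants were homozygous for the allele P18 of Prp31, which encodes a splicing factor of the tri-snRNP, and the controls were labelled white, after the eye colour gene. Whether the mutants also carry a white allele is not given in the sources used here, so eye colour background and Prp31 genotype cannot be told apart. Each group had 3 libraries, each of 50 pooled heads of flies aged 2 days and kept at 25 °C. The series covers males and females, with no sex given per library. The values are FPKM, read counts divided by gene length and by library total, so levels can be set side by side between genes.

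Glutathione S-transferases attach the tripeptide glutathione to reactive compounds, among them insecticides, plant toxins and products of lipid oxidation, and so make them soluble and ready for export. In insects the Delta and Epsilon classes have expanded by repeated gene duplication, and many of their genes lie side by side. Several genes of the family are known targets of the transcription factor Cnc, the fly counterpart of mammalian Nrf proteins, which its partner Keap1 holds in check.

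The 6 libraries held an estimated 22708000 to 25781000 reads each, read off the step between low values of single-exon genes, so intervals of counting error alone are narrow for all but the lowest members. Control libraries 1 and 2 correlated at 0.996 (Pearson, log2 values across genes), whereas control library 3 correlated with them at 0.980 and 0.979. Prp31 itself had 13.8 ± 0.36 FPKM in mutants and 14.0 ± 0.11 FPKM in controls (SD, n = 3 each), and as the labels do not say what P18 does to the transcript, this does not check them. The 6 photoreceptor markers, their sum carried mostly by ninaE and Arr2, summed to 19374.5 to 24466.0 FPKM in mutants and 16072.1 to 19006.8 FPKM in controls, and the neuronal markers to 127.7 to 165.4 FPKM in mutants and 157.3 to 187.2 FPKM in controls. None of the 6 photoreceptor markers was called, and trp, norpA, inaD, Arr2 and ninaC overlapped between the groups. Only ninaE did not, and narrowly, with 11885.8 FPKM in mutant library 3 and 11582.4 FPKM in control library 3. The fat body list, led by the yolk proteins, summed to 20448.1, 17474.4 and 46520.4 FPKM in mutant libraries 1 to 3, against 3732.2, 4141.3 and 19875.6 FPKM in control libraries 1 to 3. With no sex given per library, fat body content and the mix of sexes cannot be told apart in these sums. The 3 muscle markers in the table summed to 156.2 to 205.5 FPKM in mutants and 182.5 to 344.3 FPKM in controls. No marker of these lists was at 0 in all libraries. In whole heads, fewer cells of a type and less RNA per cell cannot be told apart.

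The family split in mutant heads. GstD1, GstE14, GstS1 and GstZ1 were higher in mutants, GstD8, GstE1, GstE8, GstE13, GstE4 and GstD11 were lower, and 20 further members did not pass the test. The 4 that were higher came from 4 classes, while the 6 that were lower all belonged to the Delta and Epsilon classes. The Delta and Epsilon classes held most tested members, at 7 and 13, beside 3 Omega, 1 Sigma, 4 Theta and 2 Zeta genes. A link between class and call was not tested. All 3 Omega and all 4 Theta members were among those not called. The symbol rule leaves out an Omega gene of another name, sepia, which was called lower and is given below.

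Of the 35 members, 30 averaged 1 FPKM or more over all 6 libraries and entered the test. The 10 called members were 33.3% of those 30, beside 11.3% of the 8465 genes tested (limma on log2(FPKM + 1), Benjamini-Hochberg adjusted p under 0.05). The 4 higher members stand beside 3.53% of all tested genes called higher, and the 6 lower ones beside 7.81% called lower. With median-ratio scaling, all genes split into 360 higher and 454 lower, and with quantile normalization into 384 and 467, beside 299 and 661 as deposited. The members themselves split into 4 higher and 4 lower with median-ratio scaling, and into 4 higher and 5 lower with quantile normalization. In 12 members (40%) the mutant values were separate from the control values, 5 with mutants higher and 7 with mutants lower, beside 31.2% of all tested genes, 9.46% with mutants higher and 21.8% with mutants lower. The median log2 fold change was −0.15 over the 30 members and −0.07 over all tested genes, and the median size of change was 0.23 over the members and 0.15 over all tested genes.

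**Figure D1:**
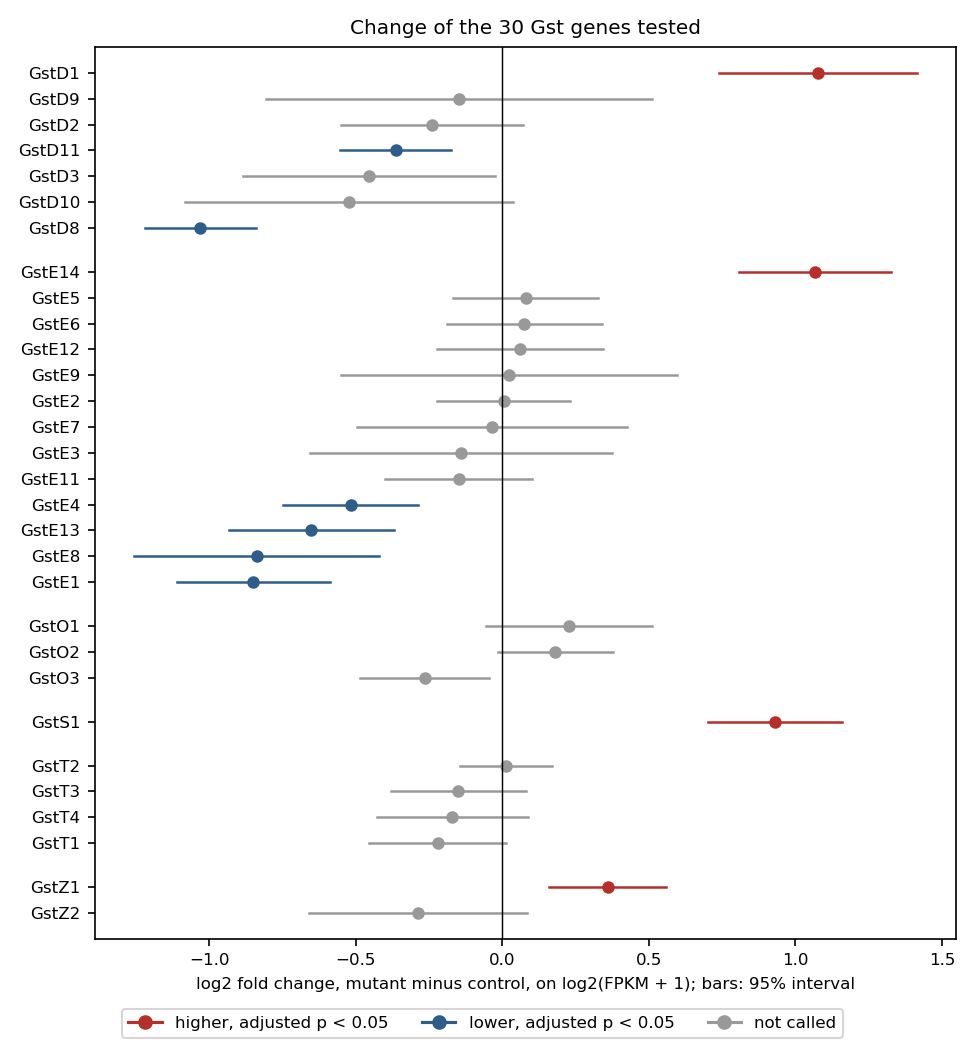
Log2 fold change, mutant over control on the log2(FPKM + 1) scale, of the 30 Gst genes tested, with 95% confidence intervals from limma, grouped by class; colours mark the members called higher, called lower and not called. GstE14 and GstD1 lie farthest above 0, and GstD8 and GstE1 farthest below it.

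Levels differed widely between members. The highest mean over the 6 libraries was that of GstE12, at 363 FPKM, and the lowest that of GstD7, at 0.047 FPKM. In 5 members the mean was at least 100 FPKM, and in 21 it was at least 10 FPKM.

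**Figure D2:**
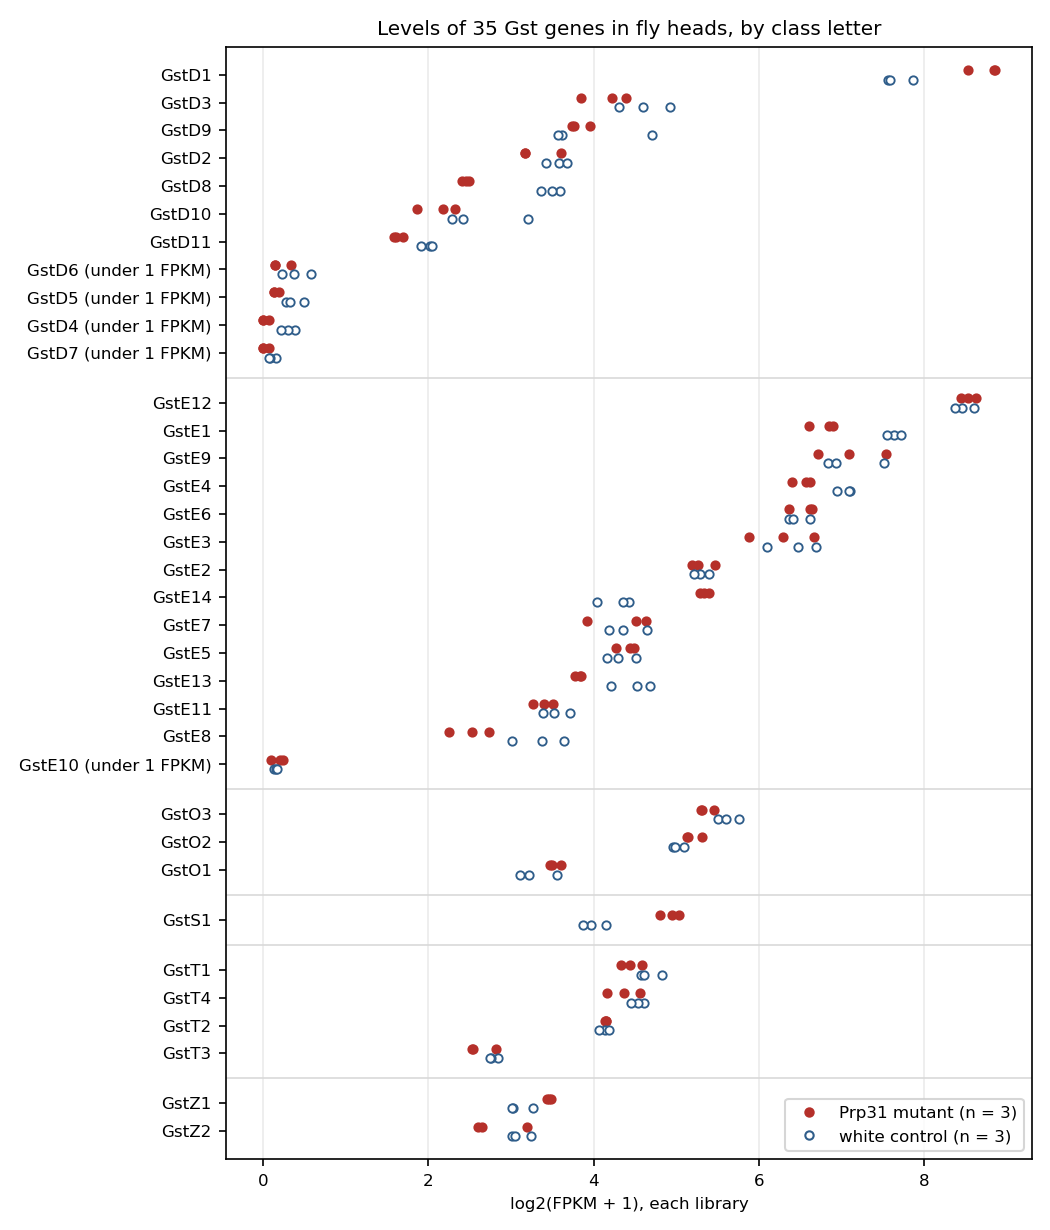
Level of each of the 35 Gst genes in each library, as log2(FPKM + 1) on the horizontal axis, with filled points for the 3 Prp31 mutant libraries drawn above open points for the 3 white control libraries, and genes grouped by class. GstE12 and GstD1 lie farthest right, and the 5 genes under the filter lie near 0.

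The summed FPKM of all 35 members was 1514.9, 1766.7 and 1834.4 in mutants, against 1529.1, 1528.0 and 1732.5 in controls. These sums averaged 1705 ± 168 FPKM in mutants and 1597 ± 118 FPKM in controls (SD, n = 3 each), and the groups overlapped. The total for the family therefore differed by less than the spread between libraries, while its make-up shifted. GstD1 took 24.4, 26.0 and 25.3% of the family's summed FPKM in mutants, against 12.3, 12.5 and 13.4% in controls. GstE1 moved the other way, with 6.4, 6.5 and 6.5% in mutants, against 12.9, 12.2 and 12.1% in controls. GstE12 kept close to the same share, at 22.9, 20.9 and 21.5% in mutants and 22.8, 21.5 and 22.3% in controls.

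**Figure D3:**
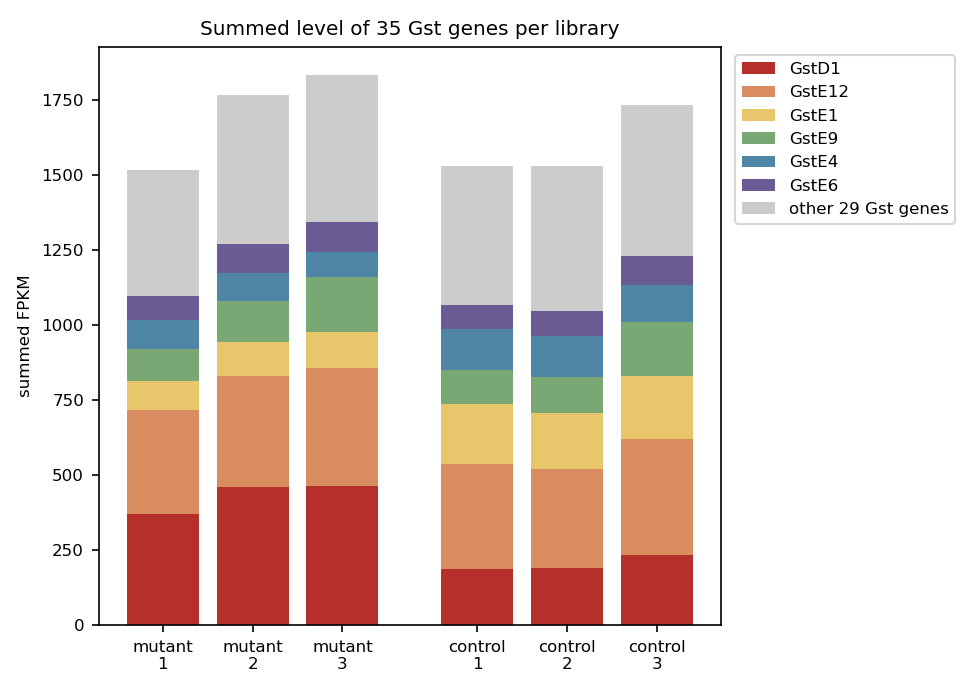
Summed FPKM of the 35 Gst genes in each library as stacked bars, mutants left and controls right, with the 6 members of highest mean in colour and the other 29 in grey. The totals of the groups overlap, and the part for GstD1 is larger in every mutant library than in any control library.

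The Delta genes were led by GstD1 (FBgn0001149), an enzyme known to break down DDT and widely used as a read-out of the oxidative stress response. It lies on the minus strand of chromosome 3R at 12367817 to 12369268 (BDGP6). Its level was 370.2, 459.6 and 464 FPKM in mutants, against 188, 191 and 233 FPKM in controls. All mutant libraries lay far above all control libraries. The means were 431 ± 53.0 FPKM in mutants and 204 ± 25.2 FPKM in controls (SD, n = 3 each), giving a log2 fold change of 1.08 ± 0.145 (SE) and a limma adjusted p of 0.00408. The mean in mutants was 2.12 times that in controls.

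GstD8 (FBgn0010044, chromosome 3R, 12380008 to 12380815) went the other way in the same stretch of the genome. It had 4.33, 4.64 and 4.498 FPKM in mutants, against 9.33, 11.1 and 10.3 FPKM in controls. The mutant values were close together and far below all control values. Having a single exon, its values gave whole reads, 86, 89 and 85 in mutants and 171, 209 and 214 in controls. The log2 fold change was −1.03 ± 0.08 (SE), at a limma adjusted p of 0.000297, the steepest fall among the members. GstD11, at the end of the same run of genes, had 2.01, 2.24 and 2.05 FPKM in mutants, against 2.77, 3.06 and 3.14 FPKM in controls. The groups did not overlap, but the change was small, at −0.36 on the log2 scale (standard error 0.08, limma adjusted p = 0.0298). This call was lost with another scaling and with most single libraries left out, as given in the closing section.

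The other 4 tested Delta genes were not called. GstD3 had 13.5, 17.7 and 19.9 FPKM in mutants and 23.2, 18.8 and 29.4 FPKM in controls, with a log2 fold change of −0.46 (95% interval −0.89 to −0.02, limma adjusted p = 0.164). GstD9 had 12.3, 12.6 and 14.5 FPKM in mutants and 11.3, 10.9 and 25.2 FPKM in controls. Its value in control library 3 stood well above the other control libraries, and the groups overlapped. GstD2 and GstD10 were lower in level, at 2.63 to 11.2 FPKM in mutants and 3.90 to 11.8 FPKM in controls, also with overlapping groups. GstD4, GstD5, GstD6 and GstD7 fell under the filter, with between 0 and 9 reads in any library. GstD4 had 1, 0 and 0 reads in mutants and 5, 4 and 3 reads in controls, and GstD7 had 1, 0 and 0 reads in mutants and 2, 1 and 1 in controls. GstD5 had 3, 2 and 2 reads in mutants and 4, 5 and 9 in controls. In GstD4 and GstD5 the groups did not overlap. At so few reads no difference is claimed for GstD4, GstD5, GstD6 or GstD7. GstD4 passed the threshold when the filter was left out (log2 fold change −0.28, limma adjusted p = 0.025), but that fit does not model counting error at so few reads. The summed Delta level was 481 ± 57.7 FPKM in mutants and 274 ± 41.6 FPKM in controls (SD, n = 3 each), of which GstD1 held 89.7% in mutants and 74.4% in controls.

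Among the Epsilon genes 1 was higher and 4 were lower. GstE14 (FBgn0033817, chromosome 2R, 13239729 to 13241013), also known as Noppera-bo, is required for making the moulting hormone ecdysone from cholesterol and is best known from the larval prothoracic gland. It had 39.5, 41.2 and 38.2 FPKM in mutants, against 20.5, 19.5 and 15.4 FPKM in controls. The 3 mutant libraries were close to each other and well above every control library. The means were 39.6 ± 1.54 FPKM in mutants and 18.5 ± 2.71 FPKM in controls (SD, n = 3 each), or 2.14-fold, and the log2 fold change was 1.07 ± 0.11 (SE), at a limma adjusted p of 0.00127.

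GstE1 (chromosome 2R, 18398393 to 18399223) was the most abundant member that fell. Its level was 96.3, 114 and 119 FPKM in mutants, against 198, 187 and 209 FPKM in controls. Every mutant library lay far below every control library. The log2 fold change was −0.85 ± 0.11 (SE), at a limma adjusted p of 0.00361, on 1970, 2249 and 2305 reads in mutants and 3727, 3624 and 4476 reads in controls. GstE4, further along the same run, had 96.9, 94.3 and 83.4 FPKM in mutants, against 137, 135 and 122 FPKM in controls. It fell less, by 0.52 on the log2 scale (standard error 0.10, limma adjusted p = 0.0166).

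GstE8 had 3.77, 5.67 and 4.76 FPKM in mutants, against 7.07, 9.38 and 11.5 FPKM in controls. The groups did not overlap, but the controls spread widely, and the log2 fold change of −0.84 had a standard error of 0.18 (limma adjusted p = 0.0254). GstE13, which stands alone on chromosome 2R at 9122125 to 9123309, had 13.3, 12.7 and 13.4 FPKM in mutants, against 22.0, 24.7 and 17.5 FPKM in controls. Its mutant libraries were nearly equal, and it fell by 0.65 on the log2 scale (standard error 0.12, limma adjusted p = 0.0151). The calls of GstE4, GstE8 and GstE13 were each lost with some single libraries left out.

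GstE12 and GstE9, the most abundant Epsilon genes that were not called, showed no separation. GstE12 had 347, 369 and 394 FPKM in mutants and 349, 329 and 387 FPKM in controls, with a log2 fold change of 0.06 (95% interval −0.22 to 0.35). GstE9 had 104, 136 and 185 FPKM in mutants and 113, 121 and 181 FPKM in controls, with a log2 fold change of 0.02 (95% interval −0.55 to 0.60). In both groups library 3 was the highest for these 2 genes. The annotation has GstE12, GstE9, GstE1 and GstE13 share 33, 40, 20 and 6 bases with genes on the opposite strand, and how strand was counted is not given in the sources used here. The remaining 6 tested Epsilon genes, GstE2, GstE3, GstE5, GstE6, GstE7 and GstE11, had log2 fold changes between −0.15 and 0.08, and GstE10 was under the filter with at most 0.18 FPKM in any library. The Epsilon sum was 1030.2 ± 100.3 FPKM in mutants and 1135 ± 63.7 FPKM in controls (SD, n = 3 each).

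GstS1 (chromosome 2R, 17093246 to 17099501), the only Sigma gene of the fly, encodes an enzyme that conjugates products of lipid peroxidation and is abundant in flight muscle. Its level was 27.0, 29.9 and 31.7 FPKM in mutants, against 14.7, 13.7 and 16.8 FPKM in controls. The lowest mutant library lay well above the highest control library. The log2 fold change was 0.93 ± 0.10 (SE), at a limma adjusted p of 0.00137. Of the 3 muscle markers, 2 were called lower in mutants. Act88F, a marker of that list, had 0.864, 0.876 and 0.928 FPKM in mutants, against 3.47, 4.63 and 2.48 FPKM in controls. It reached the filter only through the controls, so a call of Act88F would support nothing. The part of muscle in the GstS1 result was not tested.

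GstZ1 belongs to the Zeta class, whose mammalian member acts as maleylacetoacetate isomerase in the breakdown of tyrosine. It had 9.82, 10.1 and 10.2 FPKM in mutants, against 7.15, 7.10 and 8.59 FPKM in controls. The difference was small beside those of GstD1, GstE14 and GstS1, at 0.36 on the log2 scale (standard error 0.09, limma adjusted p = 0.0366), and the call was lost when any single library other than control library 3 was left out. Its neighbour GstZ2 had 5.09, 5.26 and 8.13 FPKM in mutants and 7.07, 7.29 and 8.47 FPKM in controls, was not called, and overlapped between groups.

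The Omega enzymes transfer thiol groups rather than conjugating toxins. GstO3 had 38.5, 38.7 and 42.9 FPKM in mutants and 44.3, 47.4 and 53.4 FPKM in controls, and GstO2 had 34.2, 33.9 and 38.7 FPKM in mutants and 30.03, 30.6 and 33.2 FPKM in controls. Neither pair of groups overlapped, and they leaned in opposite directions, but neither passed the test (log2 fold changes −0.26 and 0.18, limma adjusted p = 0.124 and 0.214). GstO1 had 7.61 to 11.2 FPKM over all libraries and overlapping groups. A gene of the same class with another name, sepia (se), makes the precursor of the red eye pigment drosopterin and lies between GstO genes on chromosome 3L. Its level was 132, 139 and 120 FPKM in mutants, against 224, 187 and 211 FPKM in controls, a log2 fold change of −0.66 ± 0.11 (SE), at a limma adjusted p of 0.0103. The annotation has se and GstO2 share 61 bases on opposite strands. These genes lie 6.63 to 6.64 Mb from Prp31 on the same arm.

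Of the 4 Theta genes none was called. GstT1 had 19.1, 20.6 and 22.9 FPKM in mutants and 22.9, 23.3 and 27.3 FPKM in controls, and GstT4 had 16.9, 22.6 and 19.6 FPKM in mutants and 23.4, 22.2 and 21.0 FPKM in controls. Both pairs overlapped, with log2 fold changes of −0.22 and −0.17. GstT2, which shares 223 bases with CG12926 on the opposite strand, and GstT3 had log2 fold changes of 0.01 and −0.15.

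The members fell into 12 runs of genes less than 20 kb apart. The largest held all 11 Delta genes within 20.8 kb of chromosome 3R (12364776 to 12385624), and the next held 10 Epsilon genes within 13.2 kb of chromosome 2R (18396638 to 18409835). Within each of these 2 runs, called members stood directly beside members that were not called. In the Delta run, GstD1 was higher and GstD8 and GstD11 were lower. In the Epsilon run, GstE1, GstE4 and GstE8 were lower, while GstE2, GstE3, GstE5, GstE6, GstE7 and GstE9 were not called.

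**Figure D4:**
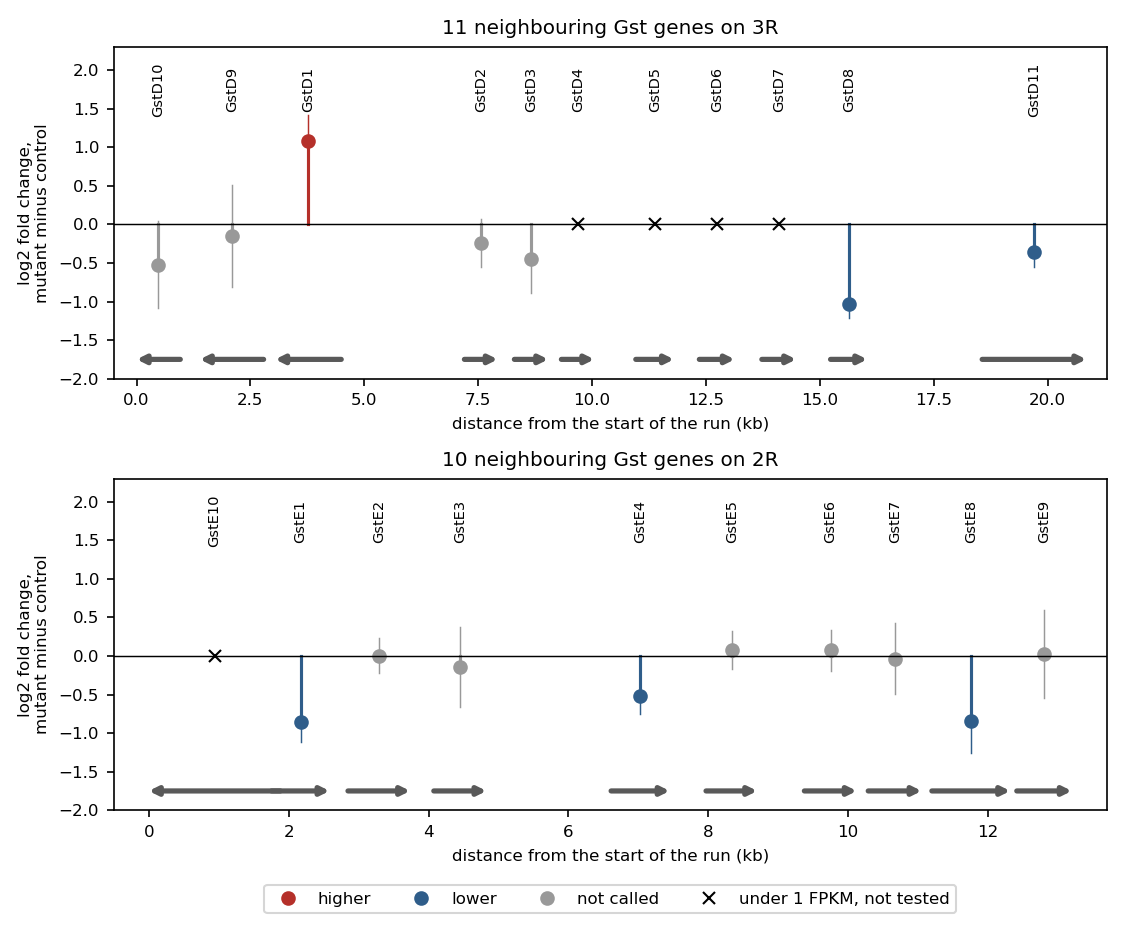
Log2 fold change of the Gst genes, mutant minus control, with 95% intervals, by distance in kb along the Delta run (3R, upper panel) and the Epsilon run (2R, lower panel); arrows show each gene and its strand, and crosses mark genes under the filter. GstD1 lies above 0 and GstD8 below it in the upper panel, and GstE1, GstE4 and GstE8 lie below neighbours near 0 in the lower panel.

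Ratios were taken within each library between 7 called members and the nearest tested member of the same run that was not called, which do not depend on scaling between libraries. These pairs were picked after the values were seen, so no test is given. GstE1 had 2.72, 3.05 and 2.74 times the FPKM of GstE2 in mutants, against 5.18, 5.15 and 5.08 times in controls. The ratio of GstE4 to GstE5 was 5.27, 4.39 and 4.03 in mutants, against 8.08, 7.26 and 5.62 in controls, and that of GstZ1 to GstZ2 was 1.93, 1.91 and 1.25 in mutants, against 1.011, 0.975 and 1.015 in controls. GstD1 had 30.1, 36.5 and 31.9 times the FPKM of GstD9 in mutants, against 16.6, 17.6 and 9.26 times in controls. The groups did not overlap in 6 of the 7 ratios computed, the exception being GstD11 to GstD3. As each ratio sets a called member over one not called, this separation was largely fixed by the choice of pairs. It adds no support to the calls. GstD8 and GstD11 do not lie next to GstD3, and the other 5 pairs are adjacent genes.

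Genes that arose by duplication can be alike in sequence, and how reads that fit several places were counted is not given in the sources used here, so the split of reads between near-identical members is uncertain. The 16 members without introns all gave whole reads in all 6 libraries (within 0.1 read). Of these, 12 were tested, and 0 were called higher and 4 lower, GstD8, GstE1, GstE4 and GstE8. Of the 18 tested members with introns, 4 were called higher and 2 lower. Over all tested genes, 38 higher and 58 lower calls fell on 722 genes without introns, and 257 higher and 598 lower calls on 7683 genes with introns.

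The 3 nearest tested genes on each side of every run, and those inside, were also counted. Genes under the filter were passed over, so some of those counted lay far off, up to 154.5 kb for Tango13. Of 78 such genes that are not members, 3 were higher and 8 lower, or 14.1%, close to the 11.3% of all tested genes. In 25 of them (32.1%) the groups did not overlap, beside 31.2% of all tested genes. The largest change among them was in Cyp9f2, a cytochrome P450 gene 17.7 kb from the Delta run, with 12.7 ± 0.54 FPKM in mutants and 99.9 ± 1.82 FPKM in controls (SD, n = 3 each), or −2.88 in log2 fold change at a limma adjusted p of 9.05e-07. CG4115, 1.5 kb from the other end of the same run, fell by 0.48 on the log2 scale. CG6984, 0.2 kb from GstS1, was higher by 0.50, and CG4679, 0.3 kb from GstE14, was lower by 0.39. Amy-d was also called higher, and Rgk2, Mmp2, Task7 and se were also called lower. CG10924, counted as higher, averaged 3.75 FPKM in mutants and 0.765 FPKM in controls, and CG33098, counted as lower, averaged 0.641 FPKM in mutants and 1.73 FPKM in controls. Both reached the filter only through the group in which they were high, so these 2 calls support nothing.

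Genes that make, recycle and use glutathione were counted as a further list of 26 symbols, of which 20 were tested. In this list 1 gene was higher, 3 were lower and 16 were not called, so 20% were called, beside 11.3% of all tested genes, and the median log2 fold change was −0.10, beside −0.07. The groups did not overlap in 10 of the 20, 1 with mutants higher and 9 with mutants lower, beside 9.46% and 21.8% of all tested genes. CG6852, a glutaredoxin gene now named Grx1, had 77.8, 78.7 and 92.2 FPKM in mutants, against 57.2, 58.8 and 61.3 FPKM in controls. It was higher in every mutant library than in any control library, with a log2 fold change of 0.48 (standard error 0.09, limma adjusted p = 0.0184). Besides se, PHGPx, a glutathione peroxidase homologue, had 78.2 ± 4.15 FPKM in mutants and 105 ± 5.49 FPKM in controls, and Mrp4, a transporter of the multidrug resistance protein group, had 5.94 ± 0.42 FPKM in mutants and 8.37 ± 0.72 FPKM in controls (SD, n = 3 each). Their log2 fold changes were −0.42 (limma adjusted p = 0.0228) and −0.43 (limma adjusted p = 0.019). The calls of PHGPx, Mrp4, CG6852 and se were lost under 7, 5, 3 and 1 of the 16 alternative settings.

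The enzyme of the first step of glutathione synthesis was not called in either subunit. Gclc, the catalytic subunit, had 9.39 ± 1.85 FPKM in mutants and 9.98 ± 2.20 FPKM in controls, and Gclm, the modifier subunit, had 70.5 ± 8.58 FPKM in mutants and 72.8 ± 25.0 FPKM in controls (SD, n = 3 each). None of the 4 regulators in the list was called. The gene for Cnc had 6.71 ± 0.33 FPKM in mutants and 6.62 ± 0.41 FPKM in controls, and Keap1 had 3.39 ± 0.29 FPKM in mutants and 3.33 ± 0.11 FPKM in controls. Both overlapped between groups, with log2 fold changes of 0.02 each. The gene maf-S, for a partner of Cnc, had 77.9 ± 1.67 FPKM in mutants and 83.5 ± 3.27 FPKM in controls, and Hr96, a nuclear receptor gene of the response to foreign compounds, had 6.89 ± 0.10 FPKM in mutants and 7.51 ± 0.45 FPKM in controls (SD, n = 3 each). In these 2 genes every mutant library lay below every control library, as in 21.8% of all tested genes. The separation was narrow, between 79.3 and 80.7 FPKM in maf-S and between 6.973 and 6.989 FPKM in Hr96. The log2 fold changes were −0.10 and −0.11 (limma adjusted p = 0.445 and 0.36). These are transcript levels, which say nothing of the proteins' activity.

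Control library 3 stood apart in the family as well. It was above both other control libraries in 23 of the 30 tested members and below both in 6, beside 3358 and 3708 of the 8465 genes tested. The median deviation was 0.21 on the log2 scale over the members, beside −0.01 over all tested genes. Left out, 5 members were higher and 6 lower, with GstO1 added, beside 26.2% of all genes called. GstD1 was at 370.2 and 459.6 FPKM in mutant libraries 1 and 2 and at 233 FPKM in control library 3. The fat body sum of that control was near those of the 2 mutants, but single genes of the list differed. Lsp1beta had 10.1 and 12.2 FPKM in those mutants and 53.5 FPKM in that control, and Lsp2 had 72.7, 61.3 and 60.8 FPKM. These are 3 single libraries, and the part of fat body transcripts or of the mix of sexes in the result was not tested. With the mean log2 value of the yolk proteins Yp1, Yp2 and Yp3 as a covariate, GstD1, GstE14 and GstS1 stayed higher, at 0.85, 1.32 and 0.75 on the log2 scale (limma adjusted p = 0.0203, 0.000403 and 0.00865), and GstD8, GstE1 and GstE8 stayed lower, at −1.04, −0.97 and −1.12 (limma adjusted p = 0.00412, 0.00709 and 0.0387). In that fit GstZ1, GstE13, GstE4 and GstD11 lost their calls, and GstD3, GstD9, GstD10, GstO3 and GstT1 were called lower, giving 3 higher and 8 lower members beside 5.8% of all genes. The yolk values themselves tended to be higher in mutants, so the fit does not fully separate them from genotype.

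**Figure D5:**
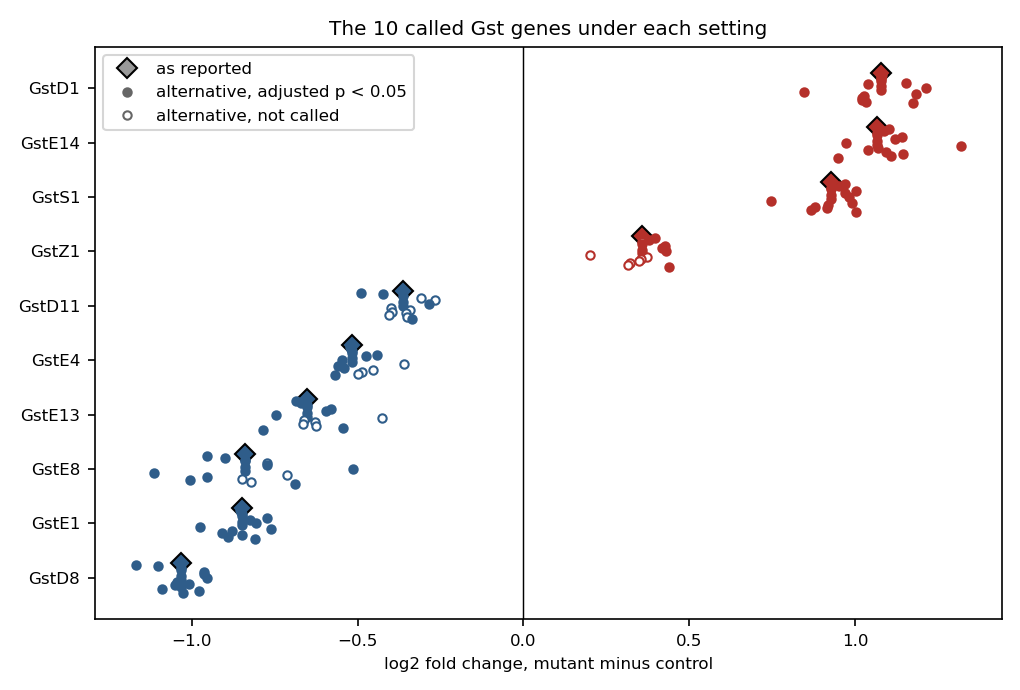
Log2 fold change, mutant minus control, of the 10 called Gst genes as reported (diamonds) and under each alternative setting (points, filled where the limma adjusted p stayed under 0.05 and open where it did not). Signs hold in all settings, and GstD1, GstE14, GstS1, GstE1 and GstD8 have no open point.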

How the data were processed

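Poly(A) RNA of 6 libraries was sequenced, per the labels' protocols. The submitters' processing notes name CASAVA 1.8, STAR 2.5.2b and the build BDGP6. The authors deposited 1 FPKM value for each gene in each library. How these were counted, with which annotation, and what was done with strand and with reads matching more than 1 gene is not given in the sources used here. Positions come from the Ensembl annotation of the same assembly.

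Groups came from the sample labels. Genes averaging 1 FPKM or more were kept, and log2(FPKM + 1) values of all 8465 were fitted with limma 3.58.1 in R 4.3.3 (variance trend, Benjamini-Hochberg adjustment, threshold 0.05), a step tested on simulated data. Fold changes on this scale understate changes of low genes. Whether replicates came from separate cultures is not given, so p-values rest on variation among these libraries that may be only technical. Reads were recovered from FPKM of single-exon genes, in which 98.9 to 99.7% of values under 50 reads were whole within 0.1, to describe depth only, since genes with introns did not give whole reads (1542 genes, 13.1%, were whole in all 6).

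The members and lists were chosen with earlier results of these data known. Named were all called members, the 2 most abundant uncalled members of each class and members under the filter. Called genes of the glutathione list were also named, as were called neighbours inside a run or among the 3 nearest tested genes on each side. The remaining uncalled members are given by range or fold change. Genes named outside this rule (Gclc, Gclm and the 4 regulators) were chosen after their values were seen. Of the list, 23 of 26 symbols were matched, and 3 were not analysed here. Alternatives were quantile normalization, median-ratio scaling, pseudocounts of 0.1 and 0.5, a minimum of 5 FPKM or none, library weights, limma without its variance trend, a replicate block, the yolk protein covariate and each library left out.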

Additional observations from a re-analysis of the deposited data

How the results depend on the processing

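Under all 16 alternatives GstD1, GstE14, GstS1, GstD8 and GstE1 were called in the same direction, with log2 fold changes of 0.85 to 1.21, 0.95 to 1.32, 0.75 to 1.00, −1.17 to −0.95 and −0.97 to −0.76. The other 5 calls were less firm. GstZ1 was lost without the filter (limma adjusted p = 0.0529), with the yolk covariate (log2 fold change 0.20, 0.316) and without any 1 library other than control 3 (0.0804 to 0.156). GstD11 was lost with median-ratio scaling (0.0528), quantile normalization (0.091), the covariate (0.113) and the same 5 libraries (0.0626 to 0.107). GstE8 was lost with median-ratio scaling (0.0528) and without mutant 1, mutant 3 or control 2, and its log2 fold change shrank to −0.52 with library weights. GstE4 was lost with the covariate (0.0794) and without mutant 3, control 1 or control 2. GstE13 was lost with the covariate (log2 fold change −0.43, 0.136) and without any mutant or control 1. The higher count was 4 and became 7 with library weights, and 3 to 5 with 1 library left out. The lower count was 6, and 3 to 6 with 1 library left out, at 3 without mutant 1, mutant 3, control 1 or control 2, 4 with median-ratio scaling and 5 with quantile normalization. In the glutathione list, 1 higher gene became 2 without the filter, 0 with the covariate and 0 to 1 with 1 library left out, and 3 lower genes became 9 with weights and 0 to 5 with 1 library left out. PHGPx was lost with median-ratio scaling (0.0574), the covariate (0.0581) and without any 1 library other than control 3 (0.0507 to 0.108). Mrp4 was lost with the covariate (0.181) and without mutant 1, mutant 3, control 1 or control 2 (0.0638 to 0.0823), CG6852 with the covariate (0.116) and without control 1 or 2, and se without control 1 (0.0515). The share of all genes called was 11.3%, became 39.0% with weights and 5.8% with the covariate, and ranged between 4.87 and 26.2% with 1 library left out.

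Signs turned only in genes that were not called with the values as reported. Of these, GstE5 was called higher with weights (0.23) and GstD9 lower with the covariate (−0.91). With the covariate these were GstE2 (−0.16), GstE3 (0.19), GstE5 (−0.11), GstE6 (−0.11), GstE9 (−0.57), GstE12 (−0.10) and GstT2 (−0.034). With weights they were GstD9 (0.14), GstE7 (0.19) and Prp31 (0.007). With median-ratio scaling and quantile normalization they were GstE7 (0.037 and 0.015) and Prp31 (0.052 and 0.035). With 1 library left out, values ranged from −0.35 to 0.22 in GstD9, −0.077 to 0.062 in GstE2, −0.334 to 0.057 in GstE3, −0.17 to 0.18 in GstE7, −0.19 to 0.23 in GstE9 and −0.018 to 0.043 in GstT2. The cause was not tested.

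The replicate numbers have no stated meaning, so they were not taken as pairs. Same-numbered libraries had correlated deviations of −0.01, 0.21 and 0.32, beside −0.31 to 0.31 in the other pairs. The replicate block gave 4 higher and 6 lower members and 13.5% of all genes called.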
